A study of Drosophila melanogaster with 12 samples.

Results

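Transcripts of 3 ribosomal protein genes were followed in Drosophila melanogaster embryos: RpL32 and RpS5b, which encode proteins of the cytosolic ribosome, and mRpS16, which encodes a protein of the mitochondrial ribosome. They are 3 of the 131 genes that could be named on the array. A probe set was assigned to a gene when its identifier was listed among the gene's synonyms in the gene table of RefSeq for fly assembly Release 6 plus ISO1 MT, and each of these genes had 1 probe set, namely 143250_AT for RpL32, 142157_AT for RpS5b and 147189_AT for mRpS16. All 3 passed the filter on low values. The names rest on that match alone, and no genome coordinates are given because the array table names no genome build.

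Total RNA from embryos of the C-S strain was hybridised to 12 single-colour arrays. There were 4 groups of 3 arrays: control and irradiated embryos of stages 9 to 11 (sensitive, in the sample titles), and control and irradiated embryos of stages 13 to 15 (resistant). Irradiation was with X-rays at a dose the labels used here leave out, and RNA was taken 15 to 20 minutes later. The labels describe whole embryos, give the C-S strain for every group and do not say whether arrays of a group came from separate collections, so the p-values reflect only the spread among these samples, which may be technical. In such bulk RNA, fewer cells of a type and less RNA per cell cannot be told apart.

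The cytosolic ribosome translates messenger RNAs from the nuclear genome, and its proteins are made from some of the most abundant transcripts of growing cells. RpL32, long known in flies as rp49, is a protein of the large subunit whose transcript is a customary reference in measurements of fly RNA. RpS5b is a small-subunit protein with a close paralogue, RpS5a, and is known in flies mainly from the germ line. mRpS16 is a small-subunit protein of the mitochondrial ribosome, which translates the few proteins encoded by mitochondrial DNA. It is encoded in the nucleus and imported into mitochondria.

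The stage labels were checked on the 2 stage markers that could be named. The segmentation gene en read 310 ± 43.3 in controls at stages 9 to 11 and 69.0 ± 13.3 at stages 13 to 15, and the tubulin gene betaTub60D, known from developing muscle, read 91.0 ± 6.01 and 633 ± 130 (mean intensity ± SD, n = 3 each). None of the 10 germ line markers on the list was among the named genes, so the germ cell content of the samples was not tested.

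Arrays with replicate number 3 stood apart in all 4 groups, and this bears on both bright members. Their brightest probe set read 11073 to 12532, against 20207 to 24796 on arrays numbered 1 and 2. The log2 level on the 4 arrays numbered 3 minus that on the other 8 arrays was −0.78 for RpL32, −0.83 for RpS5b and −0.44 for mRpS16. For the 78 probe sets with a mean intensity of 5000 or more its median was −0.58, against −0.01 for the 1752 probe sets between 200 and 1000. Since every group has 1 array of each number, differences within a number are given beside each result. Results are also given after quantile normalization, which gives all arrays the same distribution of values.

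**Figure D1:**
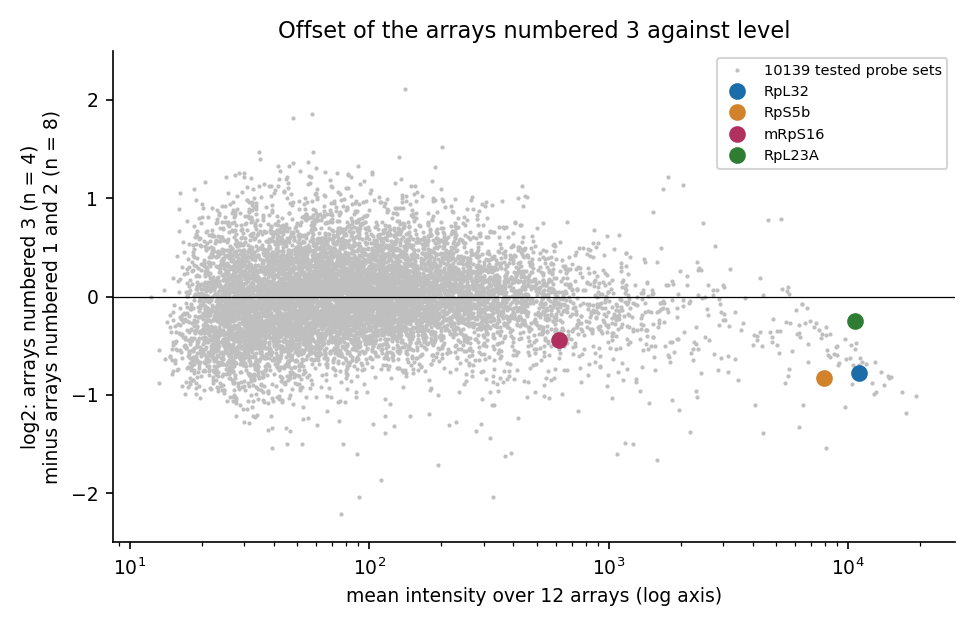
Each grey point is 1 of the 10139 tested probe sets, with its mean intensity over 12 arrays on the horizontal axis (log scale) and, on the vertical axis, its mean log2 level on the 4 arrays numbered 3 minus that on the 8 arrays numbered 1 and 2. RpL32 (−0.78) and RpS5b (−0.83) lie among the bright probe sets that read lower on the arrays numbered 3, mRpS16 is at −0.44, and the ribosomal protein gene RpL23A, of similar brightness to RpL32, is at −0.25.

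RpL32, of the large cytosolic subunit, was among the brightest probe sets on every array, ranking between 13 and 30 of 13966. Its intensity in controls at stages 9 to 11 was 11346, 13186 and 7279 on arrays numbered 1, 2 and 3, a mean of 10604 ± 3022 (SD, n = 3). In irradiated embryos of the same stages it was 10579, 11329 and 7969, a mean of 9959 ± 1764. In controls at stages 13 to 15 it was 13312, 13262 and 7463, a mean of 11346 ± 3363. In irradiated embryos at stages 13 to 15 it was 15774, 14250 and 7146, a mean of 12390 ± 4605. The order of the group means ran from irradiated embryos at stages 9 to 11 up to irradiated embryos at stages 13 to 15, but all 4 groups overlapped, and the lowest array of every group was the one numbered 3.

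**Figure D2:**
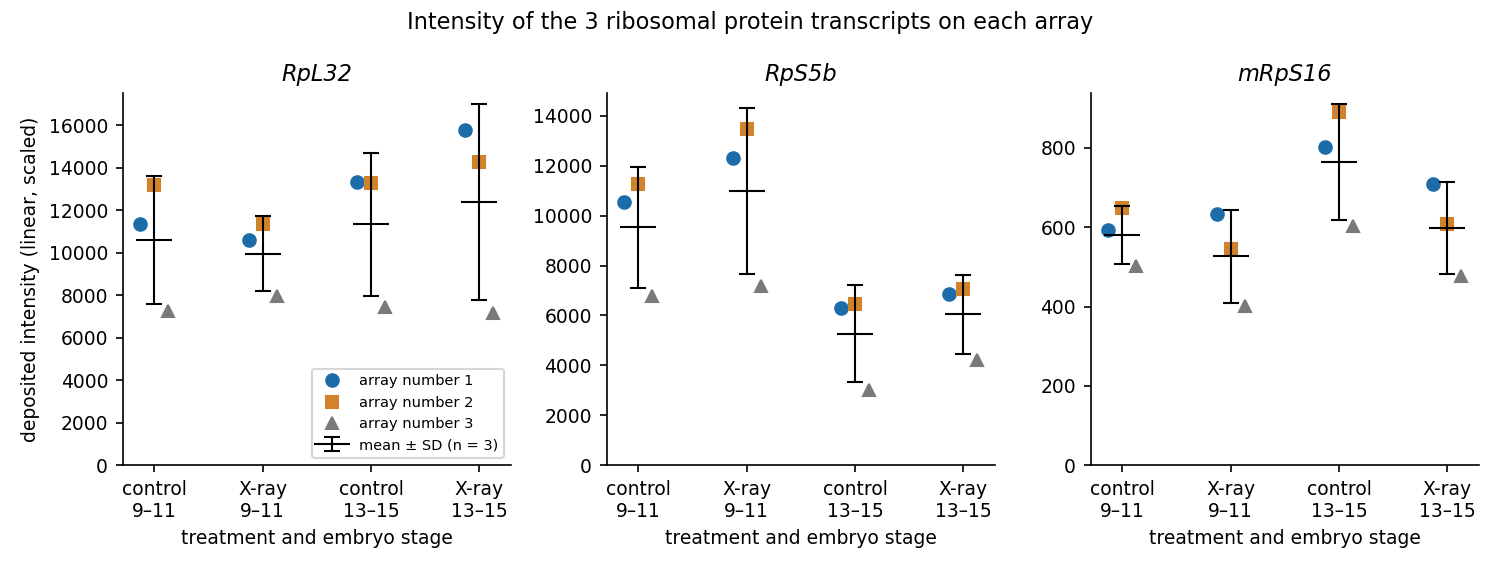
Deposited intensity (linear scale, from 0) of RpL32, RpS5b and mRpS16 on each of the 12 arrays by treatment and stage; symbols mark the replicate number, and the bars give the mean ± SD of 3 arrays. The array numbered 3 is the lowest in every group for all 3 genes, RpL32 overlaps in all groups, and RpS5b spans 3029 to 7068 at stages 13 to 15 against 6765 to 13477 at stages 9 to 11.

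No difference in RpL32 passed the test between any of the groups. Differences were taken as log2(intensity + 13.3) and fitted with limma over all 10139 tested probe sets, with Benjamini-Hochberg adjusted p-values and a threshold of 0.05. The later minus the earlier stage differed by 0.09 ± 0.34 in control embryos (log2 difference ± SE, adjusted p = 0.880, 95% interval −0.63 to 0.82) and by 0.25 ± 0.34 in irradiated embryos (adjusted p = 0.668, −0.47 to 0.97). X-ray minus control differed by −0.06 ± 0.34 at stages 9 to 11 and by 0.10 ± 0.34 at stages 13 to 15 (limma adjusted p = 1.00 for both). The X-ray difference was positive in 3 of 6 same-numbered pairs and negative in the other 3, ranging from −0.22 to 0.24. The mean X-ray effect over both windows was 0.02, with a 95% interval of −0.50 to 0.53. This fit has no term for the replicate number. With the number added to the fit as a block, the interval was −0.17 to 0.20. The size of change that remains compatible with these arrays thus depends on the fit.

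In every group the widest gap between RpL32 values was that between the array numbered 3 and the other two. Over all 12 arrays its highest value was 2.21 times its lowest, and 1.24 times after quantile normalization. Its SD within groups was 0.47 on the log2 scale, with 59.2% of tested probe sets showing a smaller one, and 0.09 after quantile normalization, with 0.424% showing a smaller one. After that normalization the 95% interval of the mean X-ray effect narrowed to −0.20 to 0.12 and that of the stage effect in controls to −0.26 to 0.19, around differences of −0.04 and −0.04, which on the deposited scale were 0.02 and 0.09. In irradiated embryos the stage difference within numbers 1, 2 and 3 was 0.58, 0.33 and −0.16. Without the 4 arrays numbered 3 it was 0.45 and passed (limma adjusted p = 0.00776).

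RpS5b, the small-subunit protein with the paralogue RpS5a, was the member with the largest differences between stages. Its intensity in controls at stages 9 to 11 was 10551, 11266 and 6765 on arrays numbered 1, 2 and 3 (mean 9527 ± 2419, SD, n = 3), and in controls at stages 13 to 15 it was 6317, 6467 and 3029 (5271 ± 1943). In irradiated embryos it was 12290, 13477 and 7196 at stages 9 to 11 (10987 ± 3337) and 6852, 7068 and 4205 at stages 13 to 15 (6042 ± 1594). Within each treatment every array of the later stages lay below every array of the earlier ones, as it did for 20.9% of tested probe sets in controls and 19.7% in irradiated embryos. The order of group means, from low to high, was controls then irradiated embryos at stages 13 to 15, followed by controls and then irradiated embryos at stages 9 to 11. Neighbouring groups in that order overlapped.

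Whether the stage difference of RpS5b passed on the deposited scale depended on the fit. It passed with the replicate number as a block, though the number was not taken as a pairing between stages. The blocked values were −0.90 ± 0.10 in controls and −0.85 ± 0.10 in irradiated embryos (limma adjusted p = 1.36e-05 and 2.72e-05). In the fit without the number it did not pass, but did so after quantile normalization. In that fit the difference in control embryos was −0.90 ± 0.34 (log2 difference, later minus earlier, ± SE), a 1.86-fold lower level, with an unadjusted p of 0.0183 and an adjusted p of 0.0635 in limma. In irradiated embryos, on 6 other arrays, it was −0.85 ± 0.34, a 1.80-fold lower level (unadjusted p = 0.0245, adjusted p = 0.0867). In the fit without the number none of the 3 members passed in either comparison. Of tested probe sets, 26.8% passed in controls and 23.6% in irradiated embryos. After quantile normalization the differences were −1.07 ± 0.22 (limma adjusted p = 0.00199) in controls and −0.94 ± 0.22 (0.00586) in irradiated embryos, where 26.5% and 23.6% of tested probe sets passed. Within numbers 1, 2 and 3 they were −0.74, −0.80 and −1.16 in controls and −0.84, −0.93 and −0.77 in irradiated embryos, so all 6 same-numbered pairs were lower at the later stages, as for 19.7% of tested probe sets. Without the arrays numbered 3 the values were −0.77 (limma adjusted p = 0.000101) and −0.89 (3.85e-05). The call also depended on single arrays numbered 3: the control comparison passed without that of the controls or of the irradiated embryos at stages 9 to 11, and the irradiated comparison without that of the irradiated embryos at stages 9 to 11 or of the controls at stages 13 to 15, with differences of −1.13 to −0.85 in those 4 fits. Without the control array numbered 3 at stages 13 to 15 the control difference was −0.54 (limma adjusted p = 0.249). That omission by itself unbalances the numbers between the groups compared. The same holds for the passing control fit without the control array numbered 3 at stages 9 to 11. It also holds for the passing irradiated fit without the irradiated array numbered 3 at those stages.

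**Figure D3:**
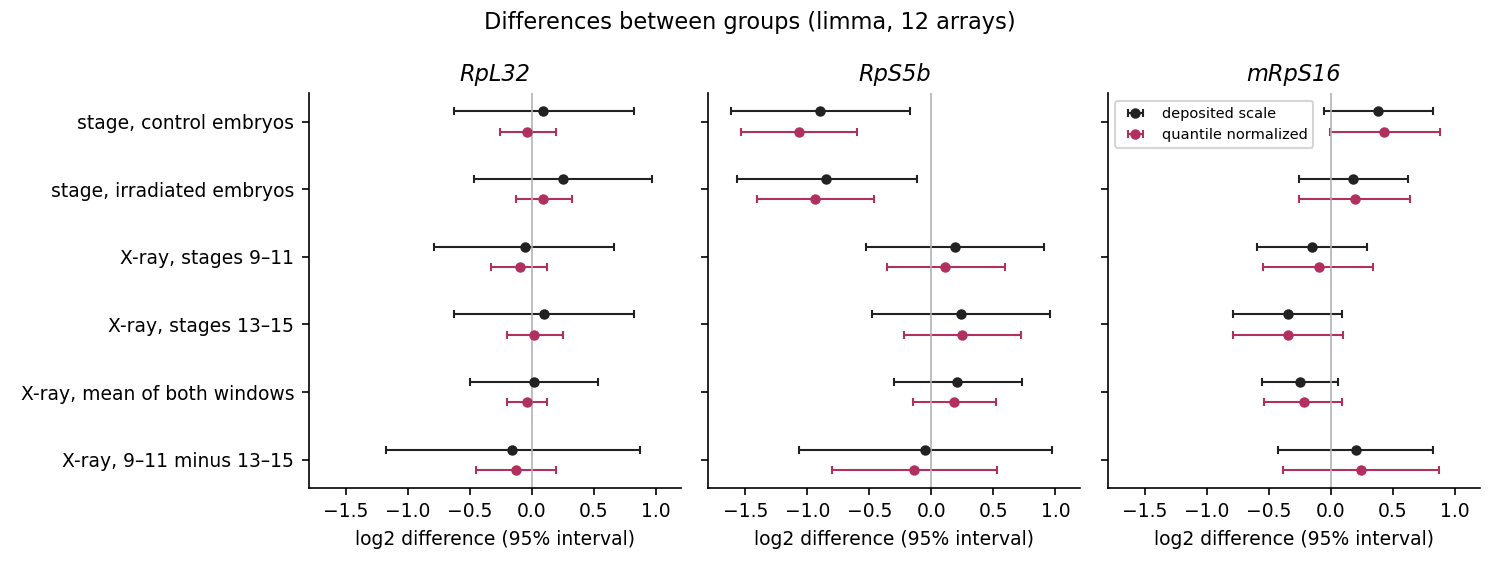
Log2 differences of RpL32, RpS5b and mRpS16 in 6 comparisons with 95% intervals from limma, on the deposited scale (black) and after quantile normalization (red). The stage differences of RpS5b, −0.90 and −0.85 on the deposited scale, are the only intervals on that scale that leave out 0, before adjustment for all probe sets, while those of RpL32 narrow around 0 after quantile normalization.

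X-ray minus control for RpS5b was positive at both stages but small beside the spread between arrays. That spread includes the offset of the arrays numbered 3. The difference was 0.19 ± 0.34 at stages 9 to 11 and 0.24 ± 0.34 at stages 13 to 15 (log2 difference ± SE, limma adjusted p = 1.00 for both). With the replicate number as a block it was 0.19 ± 0.10 (limma unadjusted p = 0.0755) and 0.24 ± 0.10 (unadjusted p = 0.0295, adjusted p = 0.619). Neither passed after adjustment. The irradiated array read higher than the control array of its number in 6 of 6 pairs, by 16.5%, 19.6% and 6.36% at stages 9 to 11 and by 8.48%, 9.28% and 38.8% at stages 13 to 15. Higher readings in all 6 pairs were seen for 1.67% of tested probe sets. Without all 4 arrays numbered 3 the differences were 0.24 at stages 9 to 11 and 0.12 at stages 13 to 15, and after quantile normalization 0.11 and 0.25. Leaving out only the control array numbered 3, which by itself unbalances the numbers between the groups, gave −0.04 and −0.12. The mean over both windows was 0.21 (95% interval −0.30 to 0.73, limma adjusted p = 1.00). Its interval with the block was 0.06 to 0.36 (limma unadjusted p = 0.00845, adjusted p = 0.978). The effects in the windows differed by −0.05 ± 0.48 (adjusted p = 0.998).

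mRpS16, of the mitochondrial ribosome, was of moderate intensity, ranking between 372 and 967 on the arrays. Its intensity in controls at stages 9 to 11 was 592, 648 and 503 on arrays numbered 1, 2 and 3 (mean 581 ± 73.1, SD, n = 3), and 634, 546 and 402 in irradiated embryos of those stages (527 ± 117). In controls at stages 13 to 15 it was 801, 890 and 604 (765 ± 146), and in irradiated embryos 708, 608 and 476 (597 ± 116). Controls at stages 13 to 15 had the highest mean and the other 3 groups lay close together, but each group overlapped with its neighbours in the order of means.

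The later minus the earlier stage for mRpS16 was 0.38 ± 0.21 in controls (log2 difference ± SE, unadjusted p = 0.0884, limma adjusted p = 0.205) and 0.18 ± 0.21 in irradiated embryos (adjusted p = 0.598). Within numbers 1, 2 and 3 it was 0.43, 0.45 and 0.26 in controls and 0.16, 0.15 and 0.24 in irradiated embryos. All 6 same-numbered pairs were thus higher at the later stages, as for 18.0% of tested probe sets. Without the arrays numbered 3 the control difference was 0.44 and passed (limma adjusted p = 0.0459), after quantile normalization it was 0.43 and with median scaling 0.17, neither of which passed (adjusted p = 0.148 and 0.563). Without 1 array it ran from 0.26 to 0.54. With the replicate number as a block it was 0.38 ± 0.12 and passed (limma adjusted p = 0.0312). In irradiated embryos it was 0.19 after quantile normalization. The sign of the mRpS16 stage difference was therefore opposite to that of RpS5b in each of the 6 pairs.

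X-ray minus control for mRpS16 was −0.15 ± 0.21 at stages 9 to 11 and −0.35 ± 0.21 at stages 13 to 15 (log2 difference ± SE, limma adjusted p = 1.00 for both, unadjusted p = 0.471 and 0.111). The irradiated array read lower than the control array of its number in 5 of 6 pairs. The changes were 7.01%, −15.7% and −20.1% at stages 9 to 11 and −11.7%, −31.7% and −21.2% at stages 13 to 15, in the order of the numbers. Lower readings in at least 5 of 6 pairs were seen for 10.3% of tested probe sets. The exception was the pair numbered 1 at stages 9 to 11. At stages 9 to 11 the difference was −0.07 without all 4 arrays numbered 3 and 0.02 without the irradiated array numbered 3 alone, which unbalances the numbers. After quantile normalization the differences were −0.10 and −0.35. With the replicate number as a block they were −0.15 ± 0.12 (limma unadjusted p = 0.234) and −0.35 ± 0.12 (unadjusted p = 0.0133, adjusted p = 0.589). The mean over both windows was −0.25 (95% interval −0.56 to 0.06), and the effects in the windows differed by 0.20 ± 0.29 (limma adjusted p = 0.996).

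For X-rays, none of the 3 members passed the adjusted threshold in limma in any of the 4 comparisons, and in the fit of 4 group means none had an unadjusted p under 0.05. Over all tested probe sets, 0.0197% passed at stages 9 to 11, 0% at stages 13 to 15, 0% for the mean over both windows and 0.0197% for the difference between the windows. An unadjusted p under 0.05 was found for 312, 503, 292 and 460 of the 10139 probe sets in the same order. In this fit, which has no term for the replicate number, the 95% interval of each member's X-ray difference included 0 in both windows, with bounds from −0.79 to 0.96 on the log2 scale. With the number as a block the intervals at stages 9 to 11 were −0.32 to 0.20 for RpL32, −0.02 to 0.40 for RpS5b and −0.42 to 0.11 for mRpS16. At stages 13 to 15 they were −0.16 to 0.35, 0.03 to 0.45 and −0.62 to −0.09. The last 2 leave out 0 before adjustment, and neither passed after it.

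Ratios within an array leave out any shift that RpL32 shares with another gene on that array, so RpS5b and mRpS16 were also taken relative to RpL32. This measure was chosen after the values were seen. It shows unequal change of the genes in a pair, not which of them changed. The offset of the arrays numbered 3 was −0.78 for RpL32 and −0.83 for RpS5b, but −0.44 for mRpS16. The ratio of mRpS16 to RpL32 therefore keeps an offset on those arrays, which adds to its spread. Setting the mean of controls at stages 9 to 11 to 0, the log2 ratio of RpS5b to RpL32 was 0.04, −0.08 and 0.04 on those control arrays and 0.36, 0.40 and 0.00 in irradiated embryos of the same stages. At stages 13 to 15 it was −0.93, −0.89 and −1.15 in controls and −1.06, −0.86 and −0.62 in irradiated embryos. The 6 arrays of the later stages ran from −1.15 to −0.62 and the 6 of the earlier stages from −0.08 to 0.40, with no overlap. The share of all probe sets whose ratio to RpL32 separates in this way is not given here. For levels within a treatment, 20.9% of tested probe sets were lower without overlap in controls and 19.7% in irradiated embryos.

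RpS5b relative to RpL32 fell by 1.04 on the log2 scale from the earlier to the later stages, a 2.06-fold drop (exact permutation test within treatment, 2-sided p = 0.00500, the smallest the 400 arrangements allow). Adjusted over the 4 ratio tests p was 0.0200. This ratio was chosen after the values were seen, so these p-values describe a separation already in view. They are no independent test of it. The drop was 0.99 in controls and 1.10 in irradiated embryos. Relative to RpL32, mRpS16 differed by 0.11 between the stages (exact permutation p = 0.490, adjusted p = 0.490), with 0.29 in controls and −0.07 in irradiated embryos. For X-ray minus control the ratio to RpL32 was 0.20 for RpS5b (exact permutation p = 0.0850, adjusted p = 0.160) and −0.27 for mRpS16 (exact permutation p = 0.120, adjusted p = 0.160), and neither passed.

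**Figure D4:**
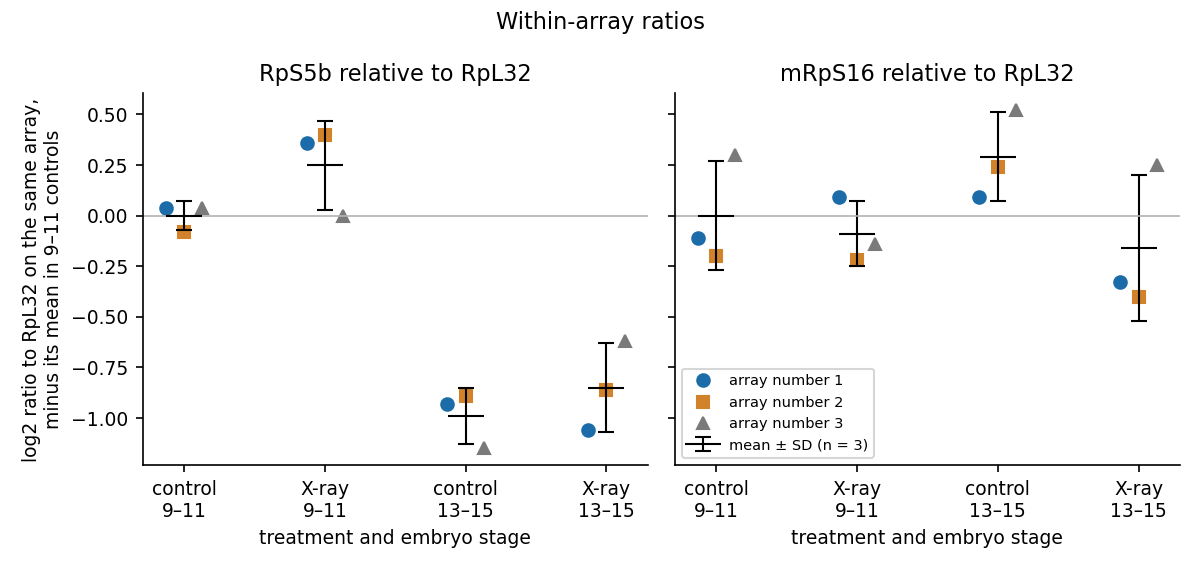
Log2 ratio of RpS5b (left) and mRpS16 (right) to RpL32 on the same array, with the mean of controls at stages 9 to 11 set to 0; symbols mark the replicate number and bars give the mean ± SD of 3 arrays. For RpS5b the 6 arrays of stages 13 to 15 lie between −1.15 and −0.62, all below the 6 arrays of stages 9 to 11, while for mRpS16 the stages overlap. The share of all probe sets that separate in this way is not given.

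The wider translation machinery was read from 6 lists: cytosolic ribosomal proteins, mitochondrial ribosomal proteins, translation factors, aminoacyl-tRNA synthetases, RNA polymerase I and III subunits, and ribosome assembly genes. Of their 290 genes, 8 could be named on the array and 7 passed the filter, 3 of them the members. The aminoacyl-tRNA synthetase and ribosome assembly lists had no named gene. Of the 7 tested genes, 1 was lower and 0 higher at the later stages in controls, and 2 were lower and 0 higher in irradiated embryos, where 14.5% and 11.6% of all tested probe sets were lower. With median scaling of the arrays, the 2719 calls over all probe sets in controls (1252 higher, 1467 lower) became 2861 (968 higher, 1893 lower). No gene of the lists passed for X-rays in either window in limma. At an unadjusted p under 0.05 there was 1, Polr1A at stages 13 to 15 (log2 difference −0.44 ± 0.20, unadjusted p = 0.0410, adjusted p = 0.997).

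The other cytosolic ribosomal protein gene, RpL23A of the large subunit, showed no difference that passed, and its stage difference in controls changed sign with quantile normalization (−0.10). It read 10506 ± 1193 and 10653 ± 1241 in controls of the earlier and later stages (SD, n = 3 each), 0.02 ± 0.22 on the log2 scale (limma adjusted p = 0.960), and 0.09 ± 0.22 in irradiated embryos (adjusted p = 0.837). Across the 3 tested genes of the cytosolic list the median stage difference was 0.02 in controls and 0.09 in irradiated embryos, against 0.05 and −0.02 over all tested probe sets. Those medians hide the lower value of RpS5b, beside the values near 0 of RpL23A and the 0.09 and 0.25 of RpL32.

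Among translation factors, eIF3d1 was lower at the later stages. The gene encodes a subunit of the initiation factor that brings the small ribosomal subunit to messenger RNA. In controls its mean of 1866 ± 387 fell to 1105 ± 249 (SD, n = 3), which is −0.75 ± 0.22 in log2 units (SE, limma adjusted p = 0.0197), and from 1948 ± 399 to 1104 ± 169 in irradiated embryos (−0.80 ± 0.22, adjusted p = 0.0153). Both differences also passed after quantile normalization, at −0.74 in controls and −0.83 in irradiated embryos (limma adjusted p = 0.0107 and 0.00602). With the replicate number as a block they passed too (limma adjusted p = 8.41e-05 and 5.96e-05). The control call was lost without the trend (limma adjusted p = 0.0558) and without the array of controls numbered 1 (0.0709) or 2 (0.0847) at the earlier stages or 3 (0.0856) at the later ones. The irradiated call was lost without the irradiated array numbered 1 (0.0691) or 2 (0.0531) at the earlier stages or 3 (0.0676) at the later ones. Its paralogue eIF3d2 read at most 12.5 on any array, below the filter value of 29.9, and was not tested. The exchange factor subunit gene eEF1beta differed by −0.29 ± 0.21 in controls (limma adjusted p = 0.350) and −0.23 ± 0.21 in irradiated embryos (adjusted p = 0.501). After quantile normalization eEF1beta passed in both, with −0.33 each (limma adjusted p = 0.0422 and 0.0425), and without the arrays numbered 3 it passed in controls (−0.30, adjusted p = 0.0395).

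Polr1A, the largest subunit of the RNA polymerase that makes ribosomal RNA, was lower at the later stages by the test in irradiated embryos but did not pass in controls. The later minus the earlier stage was −0.23 ± 0.20 in controls (SE, limma adjusted p = 0.423). In irradiated embryos the mean of Polr1A fell from 393 ± 85.7 to 223 ± 36.1 (SD, n = 3), which is −0.78 ± 0.20 in log2 units (SE, limma adjusted p = 0.00850). The difference between its X-ray effects in the windows, which equals the difference between these stage effects, was 0.54 ± 0.28 and did not pass (adjusted p = 0.995).

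**Figure D5:**
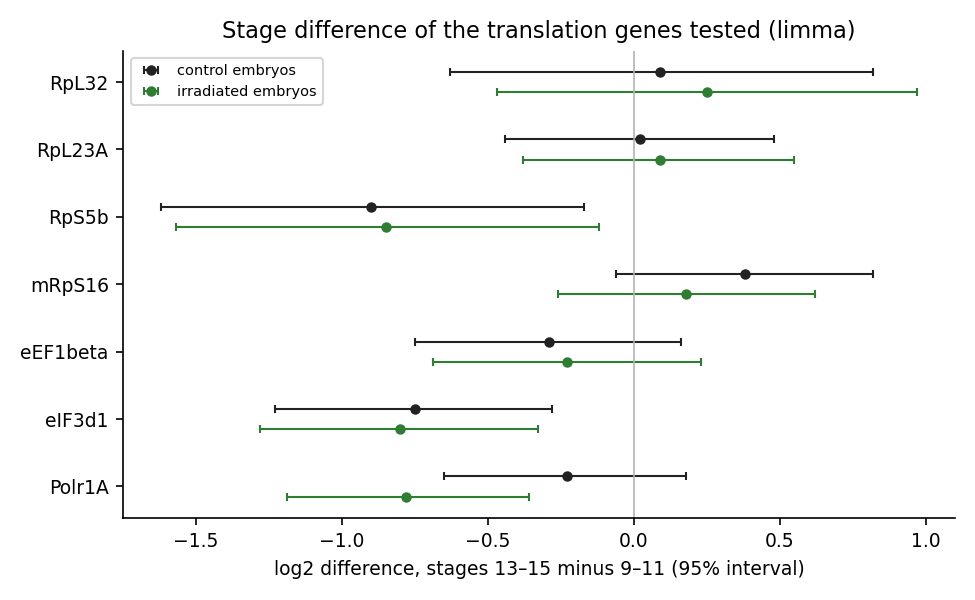
Log2 difference between stages 13 to 15 and stages 9 to 11, with 95% intervals from limma, for the 7 translation genes that passed the filter, in control (black) and irradiated (green) embryos. RpL23A lies near 0 (0.02 and 0.09), and RpS5b (−0.90 and −0.85) and eIF3d1 (−0.75 and −0.80) are lower in both. RpL32 (0.09 and 0.25) and mRpS16 (0.38 and 0.18) are on the positive side.

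Pearson correlations over the 12 arrays on the log2 scale named the genes whose pattern was most like each member, among 108 other named probe sets. The arrays share stage, treatment and replicate number, so these are descriptions. RpL23A was most like RpL32 (r = 0.955, and 0.885 once the mean of each replicate number was removed). The antimicrobial peptide gene Dro (0.746) and mRpS16 (0.725) came next, but fell to −0.420 and 0.304 without the number means, and Dro read between 8.20 and 72.3, close to the filter value. RpS5b was most like eIF3d1 (r = 0.960), eEF1beta (0.953) and the proteasome subunit gene Rpn7 (0.930), which stayed at 0.959, 0.954 and 0.962 without the number means. mRpS16 was most like ScsbetaG, a succinyl-CoA synthetase subunit gene of the mitochondrial citric acid cycle (0.824), the secretory pathway gene bai (0.786) and Nmdmc, a mitochondrial folate enzyme gene (0.759). Without the number means these were 0.836, 0.759 and 0.676. Among the members, RpS5b correlated with RpL32 at 0.452 and with mRpS16 at 0.0370, which became −0.530 and −0.766 without the number means.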

How the data were processed

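The authors deposited 1 table of intensities on a linear scale, 14010 probe sets by 12 arrays, of which 44 are array controls. No source used here names the scanner software, the background correction or the normalization. The arrays' means after trimming 2% at each end agreed to within 0.0023%, so the deposited intensities had been scaled, and none was scaled further. Values were transformed as log2(intensity + 13.3), the 25th percentile of the table, a shift that is small for the members. Probe sets above 29.9 (the 40th percentile) on at least 3 of 12 arrays were tested (10139), with control probe sets left out. limma 3.58.1 in R 4.3.3 fitted 4 group means (lmFit, eBayes with trend, 8 residual and 7.26 prior degrees of freedom, 2-sided, Benjamini-Hochberg). The fit and the exact test, in Python 3.11.15, were tested on simulated data. The outcome of those runs, including the share of small changes recovered, is not given here. The number of arrays limits the precision. With 3 arrays a group the smallest exact permutation p is 0.1, so comparisons of 2 groups rest on limma.

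The members, lists and tests were chosen with earlier results of these data known. Named genes were the members, for each the 3 named genes with the highest correlation over 12 arrays, and all named genes of the 6 translation lists. Same-numbered arrays deviated together between controls and irradiated embryos at stages 9 to 11 (correlations of deviations 0.130 to 0.421), which is taken as pairing there. In the other comparisons at least 1 correlation was under 0.1, the lowest 0.0139, and the number was not taken as a pairing. Between controls and irradiated embryos of the later stages the lowest was 0.0998, only just under 0.1, and the highest 0.435. These correlations compare whole arrays, not the members. The members' offsets on the arrays numbered 3 (−0.78, −0.83 and −0.44 for RpL32, RpS5b and mRpS16) stay in the spread of the fit without the number. With the block the SE of the RpS5b stage differences fell from 0.34 to 0.10. Alternatives were other normalizations, pseudocounts, filters, moderation, array weights, fits of the compared groups alone, the replicate number as a block, and leaving out arrays. No sequence table was used here.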

Additional observations from a re-analysis of the deposited data

How the results depend on the processing

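Of the 10139 probe sets, the numbers called moved as follows. For X-rays at stages 9 to 11 the count of 2 became 0 without the trend, 1 in a fit of the compared groups alone and 9 without the arrays numbered 3, and was 0 to 3 without 1 array. At stages 13 to 15 the count of 0 became 1 without the arrays numbered 3 and was 0 to 1 without 1 array. For the mean over both windows the count of 0 became 1 without the trend and 1 without the arrays numbered 3. For the difference between the windows the count of 2 became 1 with the stricter filter, no filter, 4 times the pseudocount and quantile normalization, 0 without the trend and 12 without the arrays numbered 3, and was 0 to 3 without 1 array. Every other alternative kept the counts within 1.5 times, the stage counts included.

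The stage difference of RpS5b in controls (−0.90) passed in limma with quantile normalization (−1.07), median scaling (−1.11, adjusted p = 0.0102), array weights (−0.91, adjusted p = 0.0430) and without the arrays numbered 3 (−0.77). That in irradiated embryos (−0.85) passed with quantile normalization (−0.94), median scaling (−0.95, adjusted p = 0.0292) and without the arrays numbered 3 (−0.89). Without 1 array they ran from −1.13 to −0.54 and from −1.13 to −0.61, always negative. That of mRpS16 in controls (0.38) passed without the arrays numbered 3 (0.44), as did that of RpL32 in irradiated embryos (0.45).

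With the replicate number as a block, RpS5b passed in controls (−0.90, limma adjusted p = 1.36e-05) and in irradiated embryos (−0.85, adjusted p = 2.72e-05) and mRpS16 in controls (0.38, adjusted p = 0.0312). With the replicate block and quantile normalization together, an alternative added after seeing the data, the values were −1.07, −0.94 and 0.43 (adjusted p = 0.000143, 0.000456 and 0.0145). The block also called eEF1beta in controls (−0.29, adjusted p = 0.0175). It changed no other call of the 3 members. For X-rays at stages 13 to 15 its 95% intervals left out 0 before adjustment, at 0.03 to 0.45 for RpS5b (unadjusted p = 0.0295, limma adjusted p = 0.619) and −0.62 to −0.09 for mRpS16 (unadjusted p = 0.0133, adjusted p = 0.589). For the mean over both windows the unadjusted p was 0.00845 for RpS5b and 0.0121 for mRpS16 (adjusted p = 0.978 for both). The block raised the stage counts to 3180 in controls and 2881 in irradiated embryos.

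Differences near 0 changed sign. That of RpL32 in the mean X-ray effect was −0.04 with quantile normalization, −0.01 with median scaling and −0.04 with quantile normalization and the block, and its stage difference in controls −0.04, −0.12 and −0.04. The window difference of RpS5b was 0.12 without the arrays numbered 3. Without 1 array, RpL32 ranged from −0.31 to 0.12 and from −0.18 to 0.45 for X-rays at the earlier and later stages, from −0.51 to 0.12 for their difference, from −0.12 to 0.19 for their mean and from −0.16 to 0.37 between stages in controls. RpS5b ranged from −0.04 to 0.47 and from −0.12 to 0.48 for X-rays and from −0.29 to 0.31 for their difference, and mRpS16 from −0.29 to 0.02 at stages 9 to 11. In the other alternatives and comparisons mRpS16 kept its sign. RpL23A between stages in controls was −0.10 with quantile normalization, −0.19 with median scaling and −0.10 with the block added, and −0.07 to 0.11 without 1 array, and in irradiated embryos 0.00, −0.01 and 0.00. Median scaling moved the median stage difference of all probe sets in controls from 0.05 to −0.12. Why values moved was not tested. Each gene had 1 probe set, so no other probe set could be tried, and the fit of compared groups alone equals the main one for the difference and the mean of the X-ray effects.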

Other observations

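RpL32 is used as a reference transcript, and the array carries control probe sets for other transcripts used in that way. They were left out of the fit and are given as values with no test. The 3′ probe set of eIF-4a, a translation initiation helicase, read 8693 ± 1897 and 8958 ± 2479 in controls of the earlier and later stages (SD, n = 3 each). Like RpL32 it was lower on the arrays numbered 3, at 6082 to 7066 against 9530 to 12644 on the other arrays, while its 5′ probe set was higher there, at 912 to 1402 against 379 to 760. The 3′ actin probe set read 1676 ± 162 and 2229 ± 137 in the same controls, and the 3′ probe set of GAPDH, a glycolytic enzyme, read 286 ± 39.6 and 1001 ± 329.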
